A study of Homo sapiens with 16 samples.

Results

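The genes described here are 10 targets of serum response factor (SRF) and of Yes-associated protein (YAP): CYR61, CTGF, ANKRD1, SRF, VCL, TAGLN, ACTB, ACTG1, MYH9 and FHL2. Some encode parts of the actin cytoskeleton, and others encode secreted proteins or factors and cofactors of transcription. The genes were chosen by name. Every probe on the array that carries 1 of these names was taken, which gave 22 of the 41000 probes that are not controls. CYR61 and CTGF are the array's names for CCN1 and CCN2. ANKRD1, CTGF and FHL2 were measured by 1 probe each and the other 7 genes by several probes each.

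Gene expression was measured on 1-colour oligonucleotide arrays in Caco-2 cells, a human colon carcinoma line (ATCC HTB-37), to find what gliadin, the wheat protein that triggers coeliac disease, does to intestinal epithelial cells. The cells were seeded in MEM with 1% FCS, used undifferentiated on the third day, and stimulated for 6 h. MED-CTL cells were kept in that medium alone, PT cells received a blank pepsin and trypsin digest made without substrate, PT-G cells received gliadin digested with pepsin and trypsin, and p31-43 cells received the synthetic gliadin peptide of that name at 150 µg/ml. Every condition was measured on 4 arrays, from 4 independent experiments. The cells differed by a passage or so between each experiment and the next. All groups were lifted from the flask with trypsin-EDTA before RNA was extracted, MED-CTL included, and all are 1 cell line in 1 state of differentiation. The dose of PT and PT-G is not given in the labels.

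SRF is a transcription factor that binds the CArG box in promoters. It works with either of the following partners. Ternary complex factors such as ELK1 and ELK4 are activated by MAP kinases and switch on immediate early genes, while myocardin-related transcription factors (MRTFs) are held back by monomeric actin and switch on actin, myosin and adhesion genes when actin polymerizes. YAP and its paralog TAZ enter the nucleus when cells spread or when the Hippo kinases are off, and act there through TEAD factors, which bind the core GGAATG. CYR61, CTGF and ANKRD1 are standard readouts of YAP, and all of these programs respond to a cell's shape, tension and attachment.

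The genes were chosen as targets of the factors that bind these elements. Promoters of 4 members that hold matches are shown, and other members hold matches too. Each line is the 250 bases before the transcription start in RefSeq on GRCh38.p14, 5′ to 3′ on the gene's strand, with a CArG box in capitals for SRF and ACTG1 and the core GGAATG in capitals for CTGF and ANKRD1.
CTGF, chr6:131951373-131951622 (minus strand): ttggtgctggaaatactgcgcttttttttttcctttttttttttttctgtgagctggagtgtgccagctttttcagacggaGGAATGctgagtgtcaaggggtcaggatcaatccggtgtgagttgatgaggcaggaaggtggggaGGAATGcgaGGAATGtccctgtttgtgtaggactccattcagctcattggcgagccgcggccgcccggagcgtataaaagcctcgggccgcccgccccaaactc
ANKRD1, chr10:90921088-90921337 (minus strand): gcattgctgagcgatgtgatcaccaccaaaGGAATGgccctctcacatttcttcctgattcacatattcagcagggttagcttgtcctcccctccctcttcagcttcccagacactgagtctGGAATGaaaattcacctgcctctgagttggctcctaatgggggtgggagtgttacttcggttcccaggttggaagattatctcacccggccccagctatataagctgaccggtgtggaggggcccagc
SRF, chr6:43171019-43171268 (plus strand): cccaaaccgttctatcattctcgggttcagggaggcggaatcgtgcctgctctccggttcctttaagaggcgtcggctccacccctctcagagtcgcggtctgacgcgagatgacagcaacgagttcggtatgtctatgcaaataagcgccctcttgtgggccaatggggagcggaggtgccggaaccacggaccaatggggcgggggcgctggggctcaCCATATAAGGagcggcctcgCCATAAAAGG
ACTG1, chr17:81512800-81513049 (minus strand): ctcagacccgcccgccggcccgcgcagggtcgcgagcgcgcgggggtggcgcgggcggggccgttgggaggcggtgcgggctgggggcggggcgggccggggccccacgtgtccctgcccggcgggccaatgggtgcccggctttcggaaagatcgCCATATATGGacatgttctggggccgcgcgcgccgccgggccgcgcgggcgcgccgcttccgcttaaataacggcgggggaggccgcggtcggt
The CTGF window holds GGAATG 3 times, at 169, 104 and 95 bases before the start, and the ANKRD1 window holds it 2 times, at 220 and 128 bases. SRF itself has 2 CArG boxes, 30 and 10 bases before its start, and ACTG1 has 1, at 94 bases. Both motifs were searched on both strands. Of the 35116 RefSeq windows of this length, 1.16% hold a CArG box and 11.9% hold GGAATG. Among the 7 members with a window in the table, 3 have a CArG box in at least 1 window (SRF, ACTG1 and FHL2) and 5 have GGAATG (CTGF, ANKRD1, VCL, MYH9 and 1 of the 4 FHL2 windows). CYR61, TAGLN and ACTB have no entry. A match of letters is a description of the window and was not tested as a binding site.

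The 22 probes were well above background on all 16 arrays, so no value given for these probes is a bound. Levels are log2 intensities after quantile normalization, and a level of 1 probe is not compared with that of another probe. Median intensities of the arrays lay between 153 and 410, between 63.8% and 78.3% of the spots were well above background, and none of the 3 saturated spots belongs to a member. The arrays lay on 5 slides, of which slides 1 to 4 hold MED-CTL and PT-G arrays, slide 3 has no PT array, slide 4 has no p31-43 array and slide 5 holds only PT replicate 3 and p31-43 replicate 4. Replicates 1 and 2 lay on slides 1 and 2 except in MED-CTL, where replicate 1 lay on slide 2 and replicate 2 on slide 1. The epithelial markers CDH1, EPCAM, KRT8, KRT18, KRT19, VIL1 and CDX2 were well above background on all 16 arrays. Of 7 fibroblast and smooth muscle markers, COL1A2 was above background on none, DCN on 8 and DES on 14 arrays, and COL1A1, COL3A1, LUM and PDGFRB on all 16. Their summed level lay between 10.95 and 11.75 on the log2 scale in all 4 conditions, with overlapping ranges, and none of the 7 passed a threshold under PT-G or p31-43. The sum adds intensities of different probes and mostly follows the brightest, LUM, so opposite moves of single markers need not show in it. Under PT, COL3A1 fell by 0.53 at the nominal threshold (limma, adjusted p = 0.272). With a slide block COL3A1 fell and PDGFRB rose past the adjusted threshold under both digests (limma, adjusted p from 0.00743 to 0.0227), and CDX2 fell by 0.72 under PT-G (limma, adjusted p = 0.00807). VIL1 fell by 0.19 under p31-43 at the nominal threshold in that fit (limma, adjusted p = 0.242). The part of these markers in the results below was not tested. In RNA from whole flasks, fewer cells that express a gene and less of its RNA per cell cannot be told apart.

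**Figure D1:**
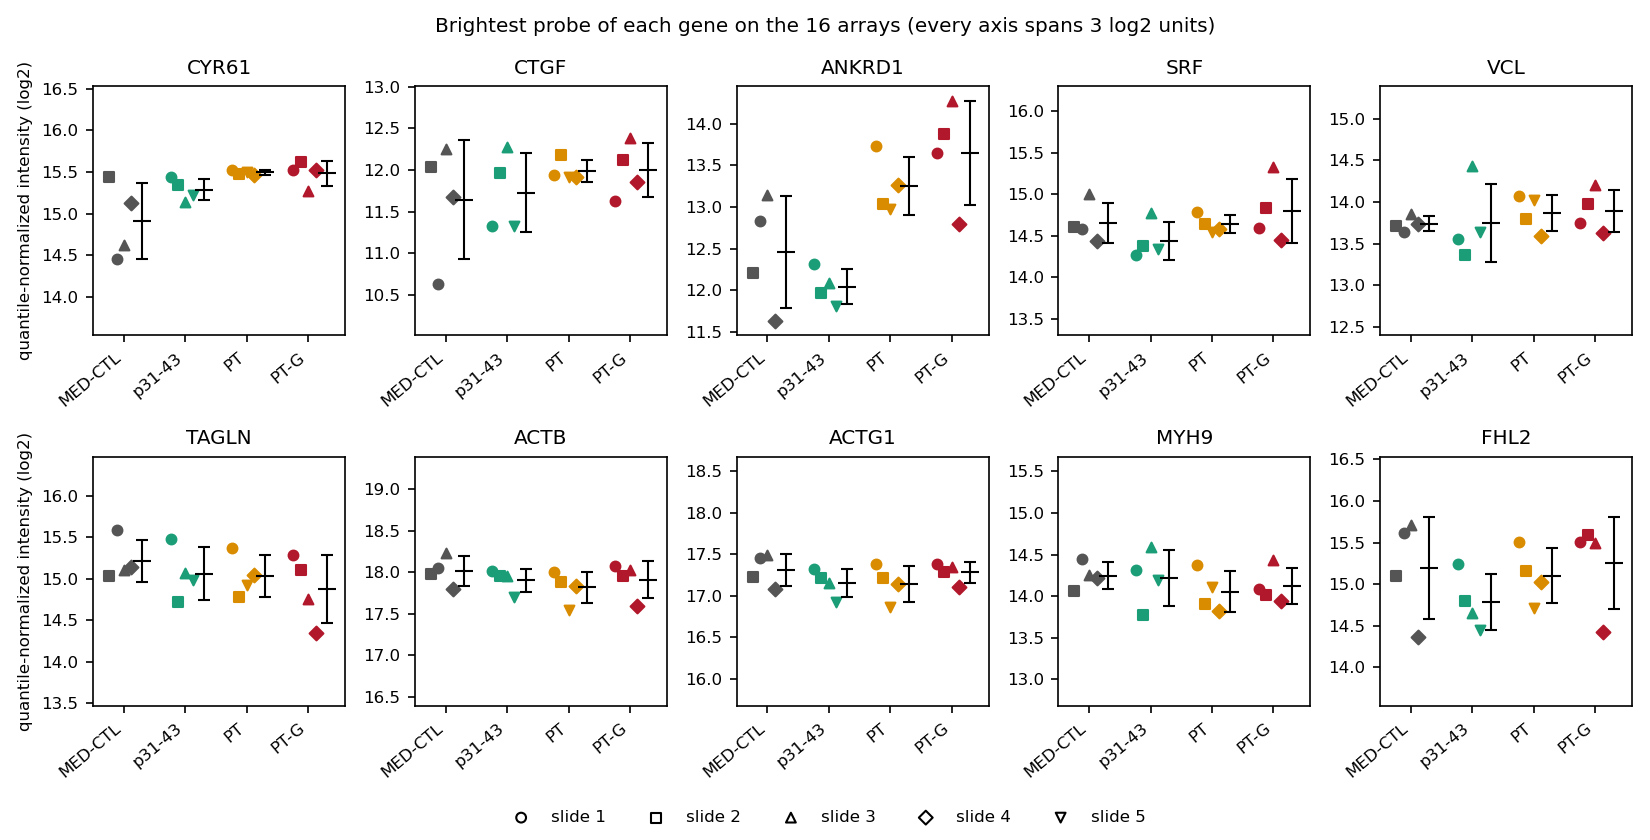
Quantile-normalized log2 intensity of the brightest probe of each of the 10 genes on the 16 arrays. Each point is an array, coloured by condition with the symbol giving its slide, and the bar beside each group is the mean with the SD of 4 arrays. The mean of ANKRD1 is highest under PT-G and lowest under p31-43, and both digests overlap MED-CTL but not p31-43. The mean of CYR61 is 0.59 higher under PT than in MED-CTL, without overlap, while its PT-G arrays overlap those of MED-CTL. The groups of the other 8 genes overlap.

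ANKRD1 moved the most of the 10 genes. It encodes an ankyrin repeat protein that shuttles between the sarcomere and the nucleus in muscle and acts as a cofactor of transcription. On the MED-CTL arrays, replicates 1 to 4, its level was 12.21, 12.83, 13.15 and 11.63. The PT-G arrays read 13.65, 13.88, 14.28 and 12.80, the PT arrays 13.73, 13.03, 12.97 and 13.27, and the p31-43 arrays 12.31, 11.97, 12.08 and 11.81. PT-G replicates 1 to 3 lay above every MED-CTL array and replicate 4 lay below MED-CTL replicates 2 and 3, while all PT-G and PT arrays lay above all p31-43 arrays.

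The mean was therefore 12.46 ± 0.67 in MED-CTL, 12.04 ± 0.21 under p31-43, 13.25 ± 0.34 under PT and 13.65 ± 0.63 under PT-G (SD, n = 4 arrays each). PT-G exceeded MED-CTL by 1.19 on the log2 scale (SE 0.33), a fold change of 2.29 with a 95% interval of 1.39 to 3.75. This passed the study's nominal threshold of p under 0.01 but not the adjustment over all probes (limma, adjusted p = 0.15), and the call was lost without MED-CTL replicate 1 (1.11) or 4 (0.92) or PT-G replicate 3 (0.98). Within slides 1 to 4 the PT-G array exceeded the MED-CTL array of the same slide by 0.82, 1.67, 1.13 and 1.16. The difference was thus higher on 4 of 4 slides, and with a slide block in limma its SE was 0.21 and its adjusted p 0.00544. The replicate number sets MED-CTL replicates 1 and 2 against PT-G arrays of another slide. With that number as a block the adjusted p was 0.0391 (limma).

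For PT the difference from MED-CTL was 0.79 (SE 0.33, limma, adjusted p = 0.476), which passed neither threshold. On the 3 slides that hold both conditions PT was higher by 0.90, 0.82 and 1.64, and with a slide block the difference was 0.99 (SE 0.22, limma, adjusted p = 0.0232). Blocking by run instead, which sets PT replicate 3 against MED-CTL replicate 3, the difference was 0.79 (SE 0.26, limma, adjusted p = 0.1) and passed neither threshold, and the nominal threshold was passed in 2 of the 22 alternatives. PT replicate 3, the array on slide 5, is the only PT array below a MED-CTL array of its own run, by 0.18. Under p31-43 ANKRD1 differed from MED-CTL by −0.41 (SE 0.33, limma, adjusted p = 1), and the differences on the 3 shared slides ran from −1.07 to −0.24, while p31-43 replicate 4, on slide 5, was 0.17 above the MED-CTL array of its run. PT-G and PT differed by 0.40 (95% interval −0.31 to 1.11, limma, adjusted p = 1), and PT-G was higher in 2 of the 4 runs.

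The widest separation of ANKRD1 was between the gliadin digest and the gliadin peptide. PT-G exceeded p31-43 by 1.61 (SE 0.33, limma, adjusted p = 0.0319), a fold change of 3.05 with a 95% interval of 1.86 to 5.00, and was higher in 4 of 4 runs, by 0.99 to 2.20. ANKRD1 was the only member that passed the adjusted threshold in any of the 6 comparisons made here without a block. PT exceeded p31-43 by 1.21 (SE 0.33, limma, adjusted p = 0.161), past the nominal threshold only, and was higher in 4 of 4 runs. Its adjusted p was 0.00277 with the slide, 0.0212 with the run and 0.0396 with the replicate number as a block. In the order of levels p31-43, MED-CTL, PT, PT-G, no neighbouring pair differed past the nominal threshold. The adjusted p between PT-G and p31-43 ranged from 0.00152 with a slide block to 0.107 without PT-G replicate 2 or p31-43 replicate 4, while the nominal threshold was passed in all alternatives. It was above 0.05 without any 1 of the 4 p31-43 arrays and without PT-G replicate 1 (0.076) or 3 (0.0913).

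CYR61 encodes a secreted matricellular protein that binds integrins. Its brightest probe, A_23_P46429, read 15.44, 14.45, 14.62 and 15.13 on the MED-CTL arrays, 15.44, 15.35, 15.14 and 15.23 under p31-43, 15.53, 15.48, 15.5 and 15.47 under PT, and 15.53, 15.62, 15.27 and 15.52 under PT-G. All PT arrays were above all MED-CTL arrays, though the highest MED-CTL array was close to them, and the spread of the MED-CTL arrays (SD 0.46) was far wider than that of the PT arrays (SD 0.03). MED-CTL replicates 2 and 3 were the low ones.

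CYR61 exceeded MED-CTL by 0.58 under PT-G (SE 0.17, limma, adjusted p = 0.185) and by 0.59 under PT (SE 0.17, limma, adjusted p = 0.176). These are fold changes of 1.49 and 1.5, both past the nominal threshold and, without a block, neither past the adjusted one. For PT-G the adjusted p was 0.036 with the slide, 0.0513 with the run and 0.0592 with the replicate number as a block, and for PT it was 0.0742, 0.0438 and 0.0518 (limma). Both calls were lost without MED-CTL replicate 2, when the differences were 0.42 and 0.43, and without MED-CTL replicate 3, when they were 0.48 and 0.49. The PT-G call was lost too without PT-G replicate 1, 2 or 4 (0.53 to 0.56), and the PT call without PT replicate 1 (0.57). For the probe A_23_P46426 the PT-G difference was 0.41 (SE 0.13, limma, adjusted p = 0.214), past the nominal threshold, and the PT difference 0.32 (SE 0.13, limma, adjusted p = 0.402). Its PT-G call was lost without MED-CTL replicate 2 (0.27) or 3, or PT-G replicate 1, 2 or 3. The dimmest CYR61 probe, A_24_P370946, passed no threshold, with 0.43 under PT-G and 0.55 under PT (SE 0.30 each).

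Within slides the brightest probe was higher under PT-G on 4 of 4 slides, by 1.08, 0.18, 0.65 and 0.38 on slides 1 to 4, and higher under PT on 3 of 3, by 1.08, 0.04 and 0.33 on slides 1, 2 and 4. The differences were largest on slide 1, which holds MED-CTL replicate 2. For p31-43 the brightest probe gave 0.38 (SE 0.17, limma, adjusted p = 1) and A_23_P46426 gave 0.00 (SE 0.13), so the probes did not show 1 size of difference. PT-G and PT differed by −0.01 for the brightest probe, with a 95% interval of −0.37 to 0.35.

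CTGF, a secreted protein of the same family that drives matrix production, had the widest spread in MED-CTL of the 3 YAP readouts. It read 12.03, 10.63, 12.25 and 11.67 on the MED-CTL arrays, 11.33, 11.96, 12.28 and 11.33 under p31-43, 11.94, 12.18, 11.91 and 11.91 under PT, and 11.63, 12.12, 12.39 and 11.86 under PT-G. The groups overlapped, and MED-CTL replicate 2 was the lowest of the 16 arrays. CTGF differed from MED-CTL by 0.36 with PT-G (SE 0.31, limma, adjusted p = 0.995), by 0.34 with PT (SE 0.31, limma, adjusted p = 0.842) and by 0.08 with p31-43 (SE 0.31, limma, adjusted p = 1). The interval for PT-G, −0.31 to 1.02, includes the change of CYR61. In the fit with a slide block, CTGF was above MED-CTL by 0.55 with PT (SE 0.17, limma, adjusted p = 0.0843), which passed the nominal threshold. Over the 16 arrays, which share these 4 conditions and 5 slides, Pearson's r was 0.378 between CYR61 and CTGF, 0.199 between CYR61 and ANKRD1, and 0.315 between CTGF and ANKRD1.

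SRF, the transcription factor itself, passed no threshold with any of its 3 probes in any comparison without a block. The brightest read 14.60, 14.58, 15 and 14.43 on the MED-CTL arrays, 14.27, 14.37, 14.77 and 14.34 under p31-43, 14.79, 14.64, 14.55 and 14.58 under PT, and 14.59, 14.83, 15.33 and 14.45 under PT-G. The values of the 4 conditions overlap, and the array of slide 3 is the highest in MED-CTL, p31-43 and PT-G alike. Differences from MED-CTL were 0.15 with PT-G (95% interval −0.23 to 0.53), −0.01 under PT (−0.39 to 0.36) and −0.21 under p31-43 (−0.59 to 0.16). These intervals leave room for an increase of SRF by up to 1.44-fold under PT-G. In the fit with a slide block the brightest SRF probe was above p31-43 by 0.39 under PT-G and by 0.37 under PT, both past the adjusted threshold (limma, adjusted p = 0.014 and 0.0174). Blocking by run, these differences were 0.36 and 0.20 and passed neither threshold (limma, adjusted p = 0.138 and 0.525). PT-G was higher than p31-43 in 4 of 4 runs, by 0.11 to 0.56, and PT in 3 of 4. FHL2, a LIM-domain cofactor of transcription that binds SRF, was between 14.36 and 15.71 in MED-CTL, 14.45 and 15.24 under p31-43, 14.71 and 15.51 under PT, and 14.43 and 15.59 under PT-G. It differed from MED-CTL by 0.06, −0.09 and −0.41 under PT-G, PT and p31-43 (SE 0.32 each, limma, adjusted p from 0.964 to 1).

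The actin genes encode the beta and gamma chains of cytoplasmic actin. ACTG1 gave different answers by probe. A_23_P44037 read 16.44, 16.24, 15.78 and 16.35 on the MED-CTL arrays, 16.45, 16.39, 16.37 and 16.50 under p31-43, 16.63, 16.67, 16.71 and 16.44 under PT, and 16.69, 16.74, 16.24 and 16.65 under PT-G. MED-CTL replicate 3 and PT-G replicate 3, both on slide 3, are the low values of their groups. It was higher with PT than in MED-CTL by 0.41 (SE 0.14, limma, adjusted p = 0.266), past the nominal threshold, and with PT-G by 0.38 (SE 0.14, limma, adjusted p = 0.368), past neither. Without MED-CTL replicate 3 the PT difference was 0.27, and the call was also lost without MED-CTL replicate 2 or PT replicate 1, 2 or 3.

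A second ACTG1 probe, A_32_P156963, was 0.34 higher under PT-G and 0.33 higher under PT (SE 0.15 each, limma, adjusted p = 0.53 and 0.498). On slides 1 to 4 both probes were higher under PT-G on every slide, by 0.15 to 0.51, and with a slide block their adjusted p for PT-G was 0.0296 and 0.0283 (limma). The brightest ACTG1 probe, A_32_P175198, gave −0.03 under PT-G and −0.17 under PT (SE 0.13 each) and was higher under PT-G on 2 of 4 slides. Over the 16 arrays its Pearson's r was −0.439 with A_23_P44037 and −0.121 with A_32_P156963, while those probes had r = 0.804 with each other. No direction can therefore be given for the gene. ACTB and ACTG1 encode near-identical proteins, and how far a probe of 1 also reads the other was not tested. The brightest ACTG1 probe had r = 0.91 with the brightest ACTB probe, and r = 0.865 with FHL2.

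None of the 4 ACTB probes passed a threshold. They differed from MED-CTL by −0.26 to 0.07 with PT-G, by −0.68 to 0.12 with PT and by −0.23 to 0.11 under p31-43. The probe that gave the lowest value in each comparison, A_23_P135769, is printed 10 times on each array and had the widest SE of the gene, 0.49, against 0.13 for the brightest, A_32_P137939. The brightest read between 17.55 and 18.23 on the 16 arrays, and its PT-G difference of −0.10 had a 95% interval of −0.38 to 0.17.

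Vinculin (VCL), which links integrins to actin, transgelin (TAGLN), an actin cross-linker of smooth muscle, and the non-muscle myosin heavy chain MYH9 passed no threshold in any comparison, with or without a block. Against MED-CTL the brightest probe of VCL gave 0.15 under PT-G and 0.13 under PT (SE 0.20 each). That of TAGLN gave −0.34 and −0.19 (SE 0.21 each), and that of MYH9 −0.13 and −0.19 (SE 0.17 each). TAGLN was lower than MED-CTL on 3 of 4 slides under PT-G and on 3 of 3 under PT. Its lowest array, 14.35, was PT-G replicate 4, and the other PT-G arrays lay between 14.76 and 15.28, within the range of the other conditions.

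Of the 22 member probes, 3 passed the nominal threshold for PT-G against MED-CTL, all higher, from 2 genes (ANKRD1 and CYR61). That is 13.6% of the members, against 3.43% of all 40982 probes tested and 1.91% higher. For PT against MED-CTL 2 probes passed, both higher, from CYR61 and ACTG1, or 9.09%, against 3.64% of all probes, 1.76% higher. No member passed for p31-43 (0.403% of all probes) or for PT-G against PT (0.0903%). For PT-G against p31-43 2 passed, both higher (ANKRD1 and CYR61 A_23_P46426), against 3.7% of all probes and 1.92% higher, and 1 of these, ANKRD1, passed the adjusted threshold, against 1.15%. For PT against p31-43 1 passed, ANKRD1, higher, against 3.14% of all probes and 1.41% higher, and 0 passed the adjusted one, against 0.749%. No member passed the adjusted threshold against MED-CTL or for PT-G against PT, which 0.93% of all probes did for PT-G and 0.83% for PT. That threshold was passed by 0% of all probes for p31-43 and for PT-G against PT. At an unadjusted p under 0.05 the counts against MED-CTL were 5 for PT-G, 5 for PT and 1 for p31-43, and 0 for PT-G against PT, of 22 in limma. Only 1 member probe, CYR61 A_23_P46429 under PT, had no overlap with MED-CTL, which 2.28% of all probes had in that direction. Against p31-43, 2 probes under PT-G (ANKRD1 and CYR61 A_23_P46426) and 3 under PT (ANKRD1, CYR61 A_23_P46426 and A_23_P46429) did not overlap and were higher, beside 2.97% and 2.55% of all probes. The median difference of the 22 probes was 0.07 for PT-G, 0.00 for PT and −0.03 for p31-43, beside −0.01, −0.01 and 0.00 for all probes. The PT-G, PT and p31-43 comparisons share the MED-CTL arrays. The members were chosen with earlier results of these data known, so these counts are a description only.

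**Figure D2:**
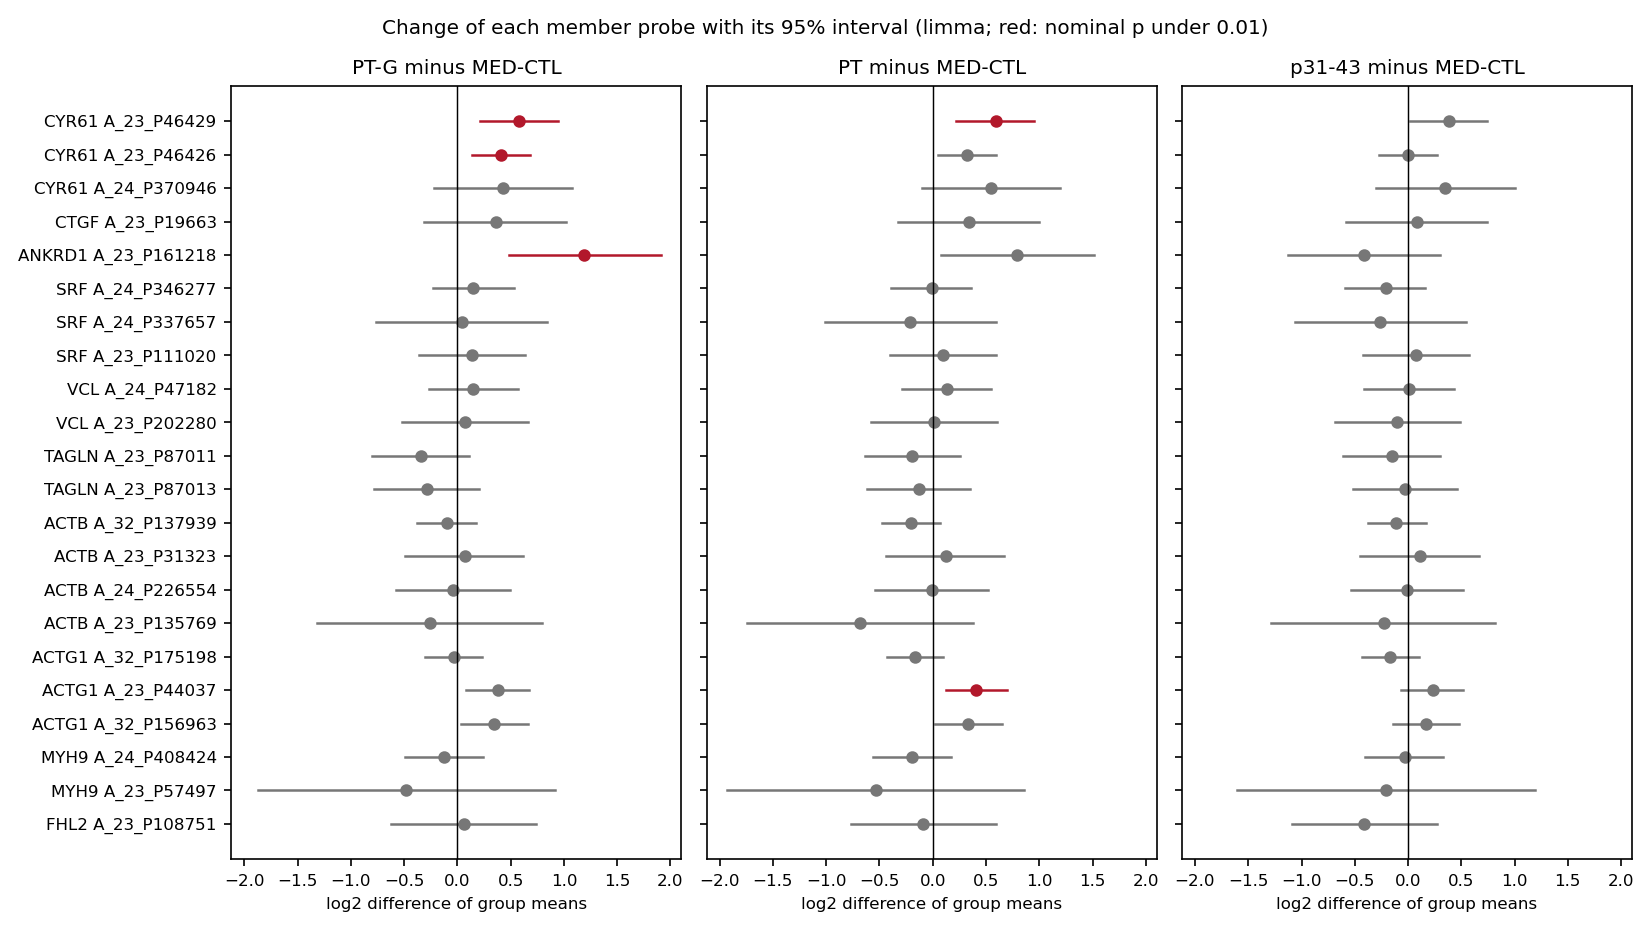
Difference of each treatment from MED-CTL for the 22 member probes, on the log2 scale (horizontal axis), with the 95% interval from limma as a line. Red marks a nominal p under 0.01 and is carried by 3 probes in the PT-G panel, 2 in the PT panel and none in the p31-43 panel. The second MYH9 probe and the ACTB probe printed 10 times have the widest intervals.

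For PT-G and PT the counts were higher when the slide was a term of the model, for members and for all probes. With a slide block, 5 of 22 passed the nominal threshold for PT-G (the 3 above and both ACTG1 probes A_23_P44037 and A_32_P156963), beside 12.2% of all probes, and 4 passed the adjusted one, beside 9.32%. For PT, 5 passed the nominal threshold beside 10.6%, and ANKRD1 alone passed the adjusted one beside 6.93%. For p31-43 no member passed, beside 3.72% of all probes at the nominal and 0% at the adjusted threshold. Against p31-43, ANKRD1 and SRF A_24_P346277 passed both thresholds under PT-G, beside 10.9% of all probes at the nominal and 7.77% at the adjusted one, and under PT, beside 10.5% and 7.24%. With the replicate number as a block, 5 passed the nominal threshold for PT-G, beside 7.58%, and 1, ANKRD1, the adjusted one, beside 3.92%. In none of the 22 probes did a treatment's difference from MED-CTL vary between the first scan period (slides 1 and 2) and the second past the nominal threshold (limma, smallest adjusted p = 0.998).

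The slide left a larger mark than the treatment in most of the 22 probes. The share of the variation over the 16 arrays that lay between slides was between 13.7% and 88.8%, and the share between conditions between 0.241% and 68%. Because condition and slide are not fully balanced, these shares overlap. For comparison, groups unrelated to the values would hold 26.7% for 5 slides and 20% for 4 conditions on average, and the medians over the 24812 probes well above background on all arrays were 68.9% and 14.1%. Condition outweighed slide in 4 probes: ANKRD1 (68% between conditions, 13.8% between slides), CYR61 A_23_P46426 (58.5% and 13.7%), CYR61 A_23_P46429 (54.5% and 25.1%) and, narrowly, ACTG1 A_23_P44037 (47.4% and 47%).

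**Figure D3:**
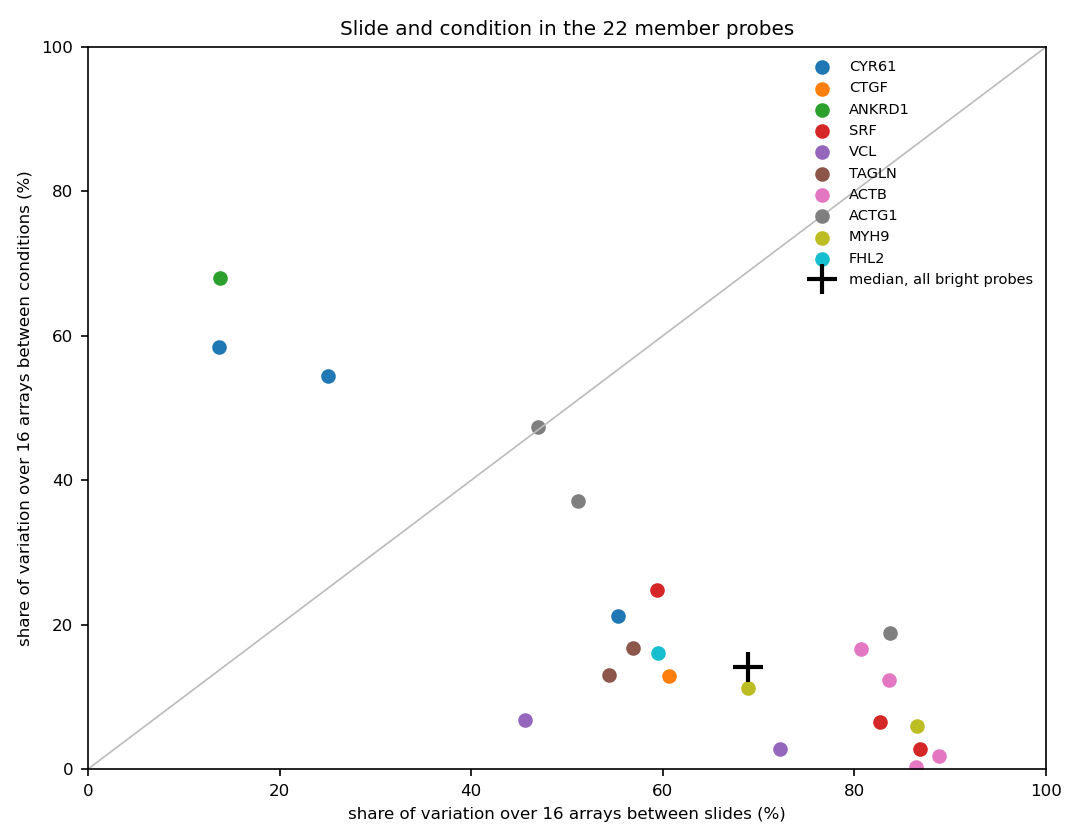
Share of the variation over 16 arrays that lay between the 5 slides (horizontal axis, percent) and between the 4 conditions (vertical axis, percent), for the 22 member probes coloured by gene. The cross is the median of all probes well above background (68.9% and 14.1%), and the line marks equal shares. ANKRD1 and 2 CYR61 probes lie clearly above the line.

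Several probes were lower on slides 4 and 5 than on the others in every condition, and 5 did not overlap. MYH9 A_23_P57497 lay between 10.03 and 11.65 on the 5 arrays of those slides and between 12.25 and 13.16 on the other 11, without overlap. SRF A_23_P111020 lay between 7.11 and 7.45 against 7.50 to 8.07, ACTB A_24_P226554 between 15.64 and 15.98 against 16.05 to 16.73, ACTB A_32_P137939 between 17.55 and 17.83 against 17.88 to 18.23, and ACTG1 A_32_P175198 between 16.86 and 17.14 against 17.15 to 17.49. The other MYH9 probe, A_24_P408424, had a mean difference between slides 4 and 5 and the rest of −0.15, with overlap, where A_23_P57497 had −1.72. CYR61 A_23_P46429 and ACTG1 A_23_P44037 were each 0.11 higher there. PT has 2 of its arrays on these slides and each other condition has 1.

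**Figure D4:**
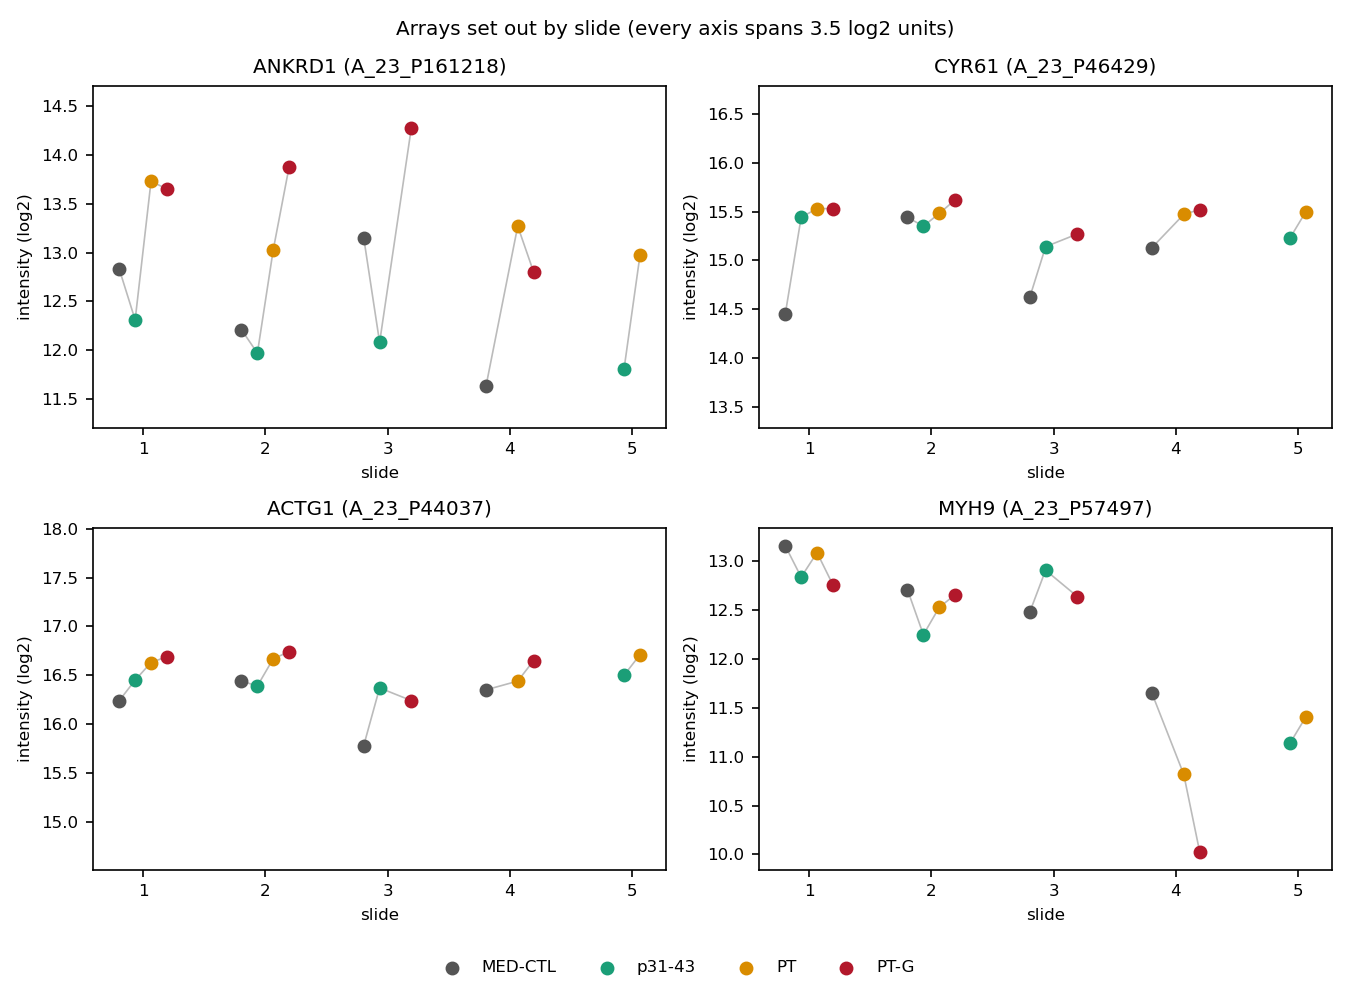
Log2 intensity of ANKRD1, CYR61 (brightest probe), ACTG1 A_23_P44037 and MYH9 A_23_P57497 on the 5 slides, each point 1 array coloured by condition and grey lines joining the arrays of a slide. ANKRD1 is higher under PT-G than in MED-CTL on slides 1 to 4, by 0.82 to 1.67, and MYH9 lies at 11.65 or below on slides 4 and 5 in every condition.

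Probes of 1 gene followed each other to different degrees. Over the 16 arrays Pearson's r was 0.928 for the pair of TAGLN probes, 0.835 for VCL and 0.521 for MYH9. It was 0.626 to 0.774 among the CYR61 probes, 0.423 to 0.973 among the ACTB probes and 0.13 to 0.82 among the SRF probes. These arrays share conditions and slides, so the values describe the probes' common variation only.

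Other targets of the same regulators were read from lists of known genes, 1 probe a gene. The lists were chosen with earlier results of these data known, so a count beside the share of all probes is a description only. The immediate early targets of SRF and its ternary complex factors (EGR1, EGR2, EGR3, FOS, FOSB, IER2, MCL1 and NR4A1) had the largest differences. Of the 8, 3 rose under PT-G and the same 3 under PT, past the adjusted threshold too: EGR3, NR4A1 and MCL1. Among all probes 1.91% were higher at the nominal threshold under PT-G and 1.76% under PT, and 0.93% and 0.83% passed the adjusted one. The list's median difference was 1.04 under PT-G and 0.67 under PT, against −0.01 for all probes in both, and 0.11 under p31-43, where none passed. NR4A1, an orphan nuclear receptor induced within minutes of a stimulus, read 13.44, 12.52, 13.07 and 13.09 in MED-CTL, 14.35, 14.60, 14.47 and 14.39 under PT-G and 14.45, 14.37, 14.07 and 14.33 under PT. Every PT-G and PT array was above every MED-CTL array. It rose by 1.42 under PT-G (SE 0.18, limma, adjusted p = 0.00149) and by 1.28 under PT (SE 0.18, limma, adjusted p = 0.00382).

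MCL1, a survival factor of the BCL2 family, rose by 0.59 under PT-G (SE 0.09, limma, adjusted p = 0.00889) and by 0.46 under PT (SE 0.09, limma, adjusted p = 0.0401), from 14.90 ± 0.05 in MED-CTL (SD, n = 4 arrays). EGR3, a zinc finger factor, rose by 2.91 and 2.59 and was above background on 15 of the 16 arrays. The remaining 5 genes gave 0.48 to 1.12 under PT-G without passing, FOS 1.01 (SE 0.44, limma, adjusted p = 0.557) and EGR1 0.76 (SE 0.54, limma, adjusted p = 0.928) among them. Their MED-CTL arrays spread widely, EGR1 from 13.38 to 15.92 and FOSB from 7.86 to 11.34. IER2 also passed with a slide block, at 0.48 under both digests (limma, adjusted p = 0.0255 and 0.0413).

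Targets of SRF and the MRTFs, the contractile and adhesion genes, had small differences. Of 21 measured genes, 19 of them above background on all arrays, 0 passed the nominal threshold for PT-G, PT, p31-43 or PT-G against PT. As 3.43%, 3.64%, 0.403% and 0.0903% of all probes passed in these comparisons, a count of 0 in a list of this size is near the background and not a result about the list. Their differences ran from −0.38 to 0.41 under PT-G and from −0.31 to 0.43 under PT, with medians of −0.01 and 0.00. Zyxin (ZYX), a focal adhesion protein, had the highest value in both, 0.41 and 0.43 (limma, adjusted p = 0.899 and 0.735), and calponin (CNN1), an actin-binding protein of smooth muscle, the lowest under PT-G, −0.38 (limma, adjusted p = 0.786). Once a slide block was added, ZYX passed the nominal threshold under PT-G (limma, adjusted p = 0.0642). ZYX and CNN1 were chosen after their values were seen.

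Further targets of YAP and TAZ moved in both directions. Of 20 measured genes, 3 rose and 1 fell at the nominal threshold under PT-G, and 2 rose and 2 fell under PT, with medians of 0.03 and −0.12. Among all probes 1.91% were higher and 1.51% lower at that threshold under PT-G, and 1.76% and 1.88% under PT. FOXF2, a forkhead factor of gut mesenchyme, read 7.27, 6.88, 7.01 and 7.30 in MED-CTL and 7.98, 7.71, 7.71 and 8.13 under PT-G, with no overlap. It rose by 0.77 (SE 0.12, limma, adjusted p = 0.00748), and by 0.45 under PT (SE 0.12, limma, adjusted p = 0.123). DOCK5, a Rac exchange factor, rose by 0.78 under PT-G (SE 0.24, limma, adjusted p = 0.212). AJUBA, a LIM protein that restrains the Hippo kinase LATS, fell by 0.56 under PT (limma, adjusted p = 0.169). PTPN14, a phosphatase that binds YAP, rose by 0.41 and 0.38 under PT-G and PT, and CCDC80, a matrix protein, fell by 0.39 and 0.41. Without a block, FOXF2 under PT-G passed the adjusted threshold, and the other differences given for these genes passed the nominal threshold only. Blocking by slide, 4 rose and 3 fell under PT-G, and 4 and 4 under PT, beside 12.2% and 10.6% of all probes in either direction. Under p31-43 AXL fell by 0.49 at the nominal threshold, beside 3.72% of all probes (limma, adjusted p = 0.254). Those added under the digests were GADD45A, higher, and ARHGEF17 and AJUBA, lower, under PT-G, and NT5E and DOCK5, higher, and AMOTL1 and ARHGEF17, lower, under PT. Past the adjusted threshold 4 rose and 2 fell under PT-G, and 2 rose and 3 fell under PT, beside 9.32% and 6.93% of all probes. PTPN14 and CCDC80 were among them under both digests (limma, adjusted p from 0.00358 to 0.0108), and DOCK5 under PT-G (limma, adjusted p = 0.00364). PTPN14, CCDC80 and the genes added by the block were named after their values were seen.

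Among 6 SRF cofactors, ELK4, a ternary complex factor, rose by 0.45 under PT-G at the nominal threshold (SE 0.12, limma, adjusted p = 0.148). MYOCD and ELK3 were above background on no array. Of 12 measured YAP and TEAD factors and Hippo kinases, 0 passed in any of these comparisons, which is near the share of all probes given above and not a result about the list. YAP1 differed from MED-CTL by 0.13 under PT-G and by 0.10 under PT, and WWTR1, which encodes TAZ, by 0.23 and 0.07. When slides were blocked, ELK4 (limma, adjusted p = 0.00953) and, at the nominal threshold, VGLL4 rose under PT-G, and MRTFA (limma, adjusted p = 0.0477) and, at the nominal threshold, ELK4 and TEAD2 rose under PT. MRTFA also rose under p31-43 at the nominal threshold, by 0.34 against 0.32 under PT (limma, adjusted p = 0.202). The 7 epithelial markers gave −0.72 to 0.08 under PT-G with none past a threshold, the lowest being the intestinal factor CDX2 (limma, adjusted p = 0.903). YAP1, WWTR1, VGLL4, MRTFA, TEAD2 and CDX2 were picked from the lists by role or value after the data were seen.

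**Figure D5:**
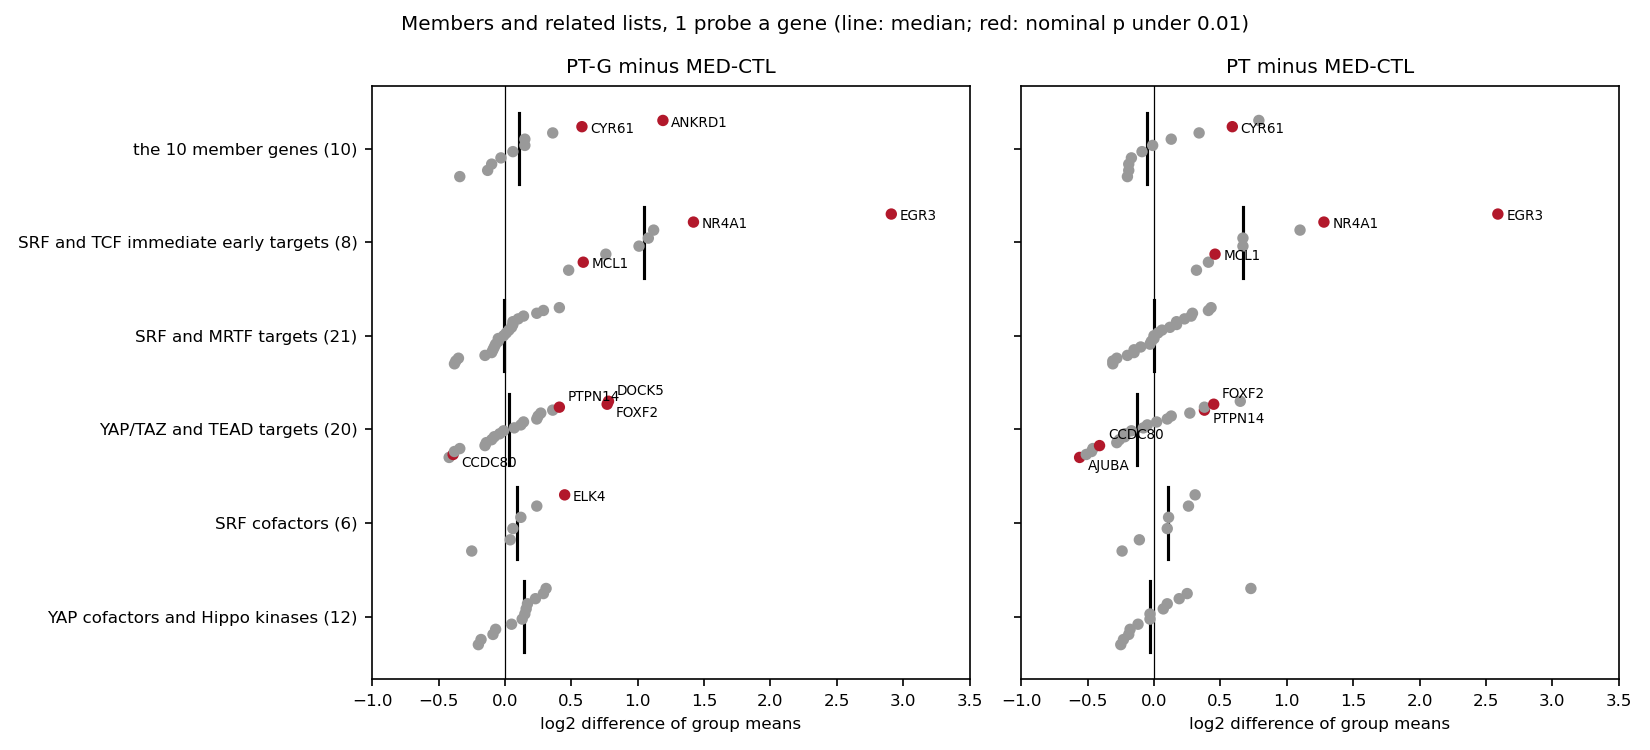
Log2 difference of PT-G (left) and PT (right) from MED-CTL for the 10 genes and the related lists, 1 probe a gene (points), with the number of measured genes in brackets and the median as a black line. Red points have a nominal p under 0.01 and are named. The immediate early list lies to the right of 0 in both panels, with medians of 1.04 and 0.67, and the MRTF targets are centred near 0.

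Among 12038 named genes whose brightest probe was above background on all arrays, those whose pattern was most like that of CYR61 over the 16 arrays were DUSP1 (r = 0.89), C20orf111 (r = 0.888) and PTPN3 (r = 0.864). Their PT-G differences from MED-CTL were 1.18, 0.18 and 0.64. Those most like SRF were MICAL2 (r = 0.944), TGIF2 (r = 0.94) and NF2 (r = 0.93), and their PT-G differences were 0.07, 0.13 and 0.17. Pearson's r was used, over arrays that share conditions and slides, and the lead of the best among so many genes is a description only.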

How the data were processed

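RNA of 16 Caco-2 cultures, 4 in each of the 4 conditions, was hybridized to 1-colour arrays of 45015 spots. Per the file headers, the deposited linear intensities came from Agilent Feature Extraction 9.5.3.1, and the authors also deposited log2 values normalized with limma. Log2 median foreground intensities, quantile-normalized over all spots without background subtraction, equalled these within 5e-09 and were used. The 1639 controls and 1774 spots marked as outliers were left out, spots of a probe were averaged, and 40982 of 41000 probes with at least 3 unmarked arrays a group were tested. Precision is limited by the number of arrays.

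The 4 conditions were fitted in 1 model with limma 3.58.1 in R 4.3.3 (12 residual and 1.9 prior degrees of freedom), 2-sided, with Benjamini-Hochberg adjustment over all probes of a comparison. The thresholds were the study's nominal p of 0.01 and an adjusted p of 0.05. An exact permutation of 4 against 4 arrays cannot go below 0.0286 and was not used. Across probes, same-numbered arrays correlated in their deviations by 0.396 to 0.857 for PT-G with MED-CTL, 0.262 to 0.706 for p31-43, and −0.00256 to 0.412 for PT. Arrays of the same run correlated by 0.629 to 0.857, 0.538 to 0.706 and −0.00256 to 0.621. The run thus paired the arrays at least as closely as the number, which sets MED-CTL replicates 1 and 2 against arrays of another run. Runs were read from a stamp that 1 array of each condition shares. The main probe of a gene is its brightest. All probes of the 10 genes were described. From each list of related genes, the 3 of largest change among those past the nominal threshold for PT-G or PT were named, and for CYR61 and SRF the 3 genes most correlated. A further list is not reported here. The members and lists were chosen with earlier results of these data known. On simulated data with independent noise and no slide effects, 92% of probes changed by 1 log2 unit passed the nominal threshold and 70% the adjusted one. Smaller changes were not simulated and the real arrays have slide effects, so these shares are not the sensitivity for the members. Alternatives covered scaling, background, spot and probe filters, blocks and left-out arrays. Motifs were searched in RefSeq promoter windows with Python 3.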

Additional observations from a re-analysis of the deposited data

Results flagged for a closer look

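In 88 groups of 4 arrays (22 probes in 4 conditions), 4 held 1 array far from the others by Dixon's test, where chance gives about 1 in 20 groups. For MYH9 A_23_P57497, PT-G replicate 4 read 10.03 and the other PT-G arrays 12.64 to 12.76. For FHL2, PT-G replicate 4 read 14.43 and the others 15.49 to 15.59. PT-G replicate 4 lay on slide 4, where MED-CTL was also lowest for both probes. For CTGF, PT replicate 2 read 12.18 and the others 11.91 to 11.94. For ACTG1 A_32_P156963, PT replicate 3, on slide 5, read 15.78 and the others 16.10 to 16.15.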

How the results depend on the processing

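For PT-G against MED-CTL the count of member probes past the nominal threshold, 3, became 1 with the processed background-subtracted signal, 5 with the slide, run or replicate block, and 0 when only the 2 groups compared were fitted. Past the adjusted threshold, 0 became 4 with the slide and 1 with the run or replicate block. For PT the nominal count of 2 became 5 with a slide block, 1 with median scaling, with only probes well above background or with the scan day as a block, and 0 with the processed signal or only the 2 groups. The adjusted 0 became 1 with the slide as a block (ANKRD1) and 1 with the run as a block (CYR61 A_23_P46429), not by the same probe. The replicate block, which pairs arrays by number only, gave a nominal count of 3 for PT. Leaving out 1 array gave 1 to 3 nominal and 0 to 1 adjusted for PT-G, 0 to 3 and 0 to 1 for PT, 0 to 1 nominal for p31-43 and 0 throughout for PT-G against PT. The lowest counts came without MED-CTL replicate 2 or 3 or PT-G replicate 1 or 2 (1 each) for PT-G and without MED-CTL replicate 2 or PT replicate 1 (0 each) for PT, whose count was also 1 without MED-CTL replicate 3, PT replicate 2 or 3, PT-G replicate 1, 2 or 4, or any p31-43 array. Without MED-CTL replicate 1, 1 probe passed the adjusted threshold for PT-G and for PT, and 1, CYR61, the nominal one for p31-43. The run as a block and the test of the scan periods were added after the data were seen. The cause of these shifts was not tested.

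ANKRD1 stayed higher under PT-G in all alternatives, by 0.92 to 1.48, and lost the nominal call when only those groups were fitted and without MED-CTL replicate 1 or 4 or PT-G replicate 3. Against p31-43 it stayed past the nominal threshold in all (1.40 to 1.89), and past the adjusted one except with the scan day as a block, with only these 2 groups, and without any p31-43 array or PT-G replicate 1, 2 or 3. Directions turned only in comparisons where the probe passed no threshold. SRF under PT became 0.00 with quantiles over spots that are not controls, 0.06 with median scaling, 0.01 with mean foreground or normexp, 0.05 with the processed signal, 0.13 with the slide and 0.04 with the scan day as a block. FHL2 under PT became 0.07 and VCL under p31-43 −0.04 with a slide block, MYH9 under p31-43 0.03 with median scaling, and CYR61 A_23_P46426 under p31-43 −0.09 with the processed signal. Leaving out 1 array gave ranges across 0 under PT-G for ACTB (−0.18 to 0.00), ACTG1 A_32_P175198 (−0.11 to 0.03), SRF (−0.03 to 0.27) and FHL2 (−0.22 to 0.34), under PT for CTGF (0.00 to 0.54), SRF (−0.09 to 0.10) and FHL2 (−0.37 to 0.08), and under p31-43 for CTGF (−0.26 to 0.28), CYR61 A_23_P46426 (−0.13 to 0.08), MYH9 (−0.15 to 0.12) and VCL (−0.22 to 0.14). Median scaling moved the median of all probes under PT to −0.11. All 22 probes were well above background on the 16 arrays, and the part of background in these shifts was not tested.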
